A study of Mus musculus with 4 samples.

Results

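The fibrotic liver in which Hk2 was deleted was compared here with fibrotic livers that kept the gene, over whole sections. Hk2 encodes hexokinase 2, an enzyme that adds a phosphate to glucose so that glycolysis can begin. The comparison held 3 of the 4 sections of the series: 1 Hk2-deleted fibrotic section and 2 fibrotic sections, with 10576 of 13640 spots in all. The liver had been fixed in formalin and embedded in paraffin, and transcripts were measured by Visium, in which probes to each gene are read at barcoded spots under the tissue. Each section came from its own mouse. For each section the molecules counted (UMIs, unique molecular identifiers) were summed over all its spots, because spots of 1 section are not replicates.

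All 4 mice carried floxed Hk2 alleles (HK2fl/fl), were labelled male and 5 months old, and received tamoxifen at 75 mg/kg on each of 5 days. The Hk2-deleted mouse had PDGFRBcreERT2 in addition, a Cre recombinase that tamoxifen activates and that is driven by the Pdgfrb promoter, and its littermate controls lacked the Cre. A wait of 2 weeks followed before the mice were treated. The fibrotic and the Hk2-deleted mice received carbon tetrachloride (CCl4) at 1 µL/g, 2 times a week, and the healthy mouse received olive oil. The length of CCl4 treatment is 6 weeks by the design text of the series and 4 or 6 weeks by the sample protocol. Pdgfrb marks hepatic stellate cells but also pericytes and other mural cells, so the Cre is not confined to 1 cell type. No Cre-carrying mouse without CCl4 was among the samples, and there was 1 deleted mouse.

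CCl4 is a hepatotoxin that is activated by cytochrome P450 enzymes of pericentral hepatocytes. Repeated dosing turns stellate cells into collagen-producing myofibroblasts, and quiescent stellate cells store vitamin A. Hepatocytes meanwhile answer cytokines such as IL-6 and IL-1 with the acute phase response, the secretion of plasma proteins under control of STAT3, NF-kB and C/EBP factors. Growth hormone acts on hepatocytes through STAT5, which induces feedback inhibitors such as Cish and lowers the repressor Bcl6.

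Section totals ran from 40585039 to 67479047 UMIs, with medians of 13665 to 15588 UMIs per spot. Levels are given as normalised CPM, a gene's UMIs per 1000000 UMIs of the section after scaling between sections by TMM (trimmed mean of M-values). Fibrotic replicate 1 was labelled male, but its Y-linked transcripts were near 0: Eif2s3y stood at 83.9, 0.515, 63.3 and 58 CPM in the healthy section, fibrotic replicates 1 and 2 and the Hk2-deleted section, an order kept in all later lists of 4 levels. Mesothelium covers the liver surface, and spots that held or neighboured a UMI of its markers Msln or Upk3b made up 33.3% and 2.29% of fibrotic replicates 1 and 2, 31.0% of the Hk2-deleted section and 12.8% of the healthy one. The hepatocyte markers Alb and Serpina1a were found in every section, as in liver, and the share of all UMIs that Alb took was 13.5% in the healthy section, 12.3% and 10.1% in fibrotic replicates 1 and 2 and 6.88% where Hk2 had been deleted. The part that these differences between sections have in the results was not tested, and values against each fibrotic section alone are given where they matter. In sums of this kind fewer cells of a type and less RNA per cell cannot be told apart.

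Of 14125 genes tested, 20 rose and 12 fell in the Hk2-deleted section (n = 1) against the fibrotic sections (n = 2). That is 0.142% called higher and 0.0850% called lower. A call needed an adjusted p under 0.05 in edgeR's quasi-likelihood test with Benjamini-Hochberg adjustment, and the Hk2-deleted section had to lie outside the range of both fibrotic sections. The p-values rest on 1 residual degree of freedom, which comes from the 2 fibrotic sections. Replicate 1, with Y-linked transcripts near 0 despite its male label, is among them. Whatever sets it apart enters both that spread and the fibrotic range. edgeR draws each gene's spread towards a trend over all genes, so a p-value does not measure that gene's own fibrotic distance alone. The test also assumes that the lone deleted section varies alike. Lying outside the range was common by itself: 28.1% of the genes tested were above both fibrotic sections, 28.2% below both and 43.7% between them. The counts given for each gene list are to be read against these shares. At least 2-fold above both lay 24 genes (0.170%) and at least 2-fold below both lay 11 (0.0779%), with 0.5 CPM added to each level.

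The fibrotic sections were not closer to each other than to the deleted one. The median size of the log2 ratio between fibrotic replicates 1 and 2 was 0.18, and it was 0.14 between the Hk2-deleted section and either of them. Replicate 1 was at least 2-fold above replicate 2 in 126 genes, and replicate 2 above replicate 1 in 82. At 10 CPM or more on average, the genes that differed most were Cyp2b13, Saa3, Slc22a26, Cyp2a4 and Acot3, higher in replicate 1, and Eif2s3y, Ddx3y, Uty, Kdm5d and Gadd45g, higher in replicate 2. Of the 32 called genes, 29 lay farther past the nearer fibrotic section than the fibrotic sections lay from each other. The exceptions with the wider fibrotic gap were Ppp1r3g, Mmp12 and Ighg2c. All 32 had the same sign against each fibrotic section alone, which the range rule of a call requires. Against replicate 2 alone, the section whose Y-linked level matched its label, log2 ratios of the higher genes ran from 0.74 to 5.67, leaving out Krt14, which had 0 UMIs there, and those of the 12 lower genes from -3.32 to -0.91. Against replicate 1 alone they ran from 0.91 to 3.12 and from -2.81 to -1.0. Past the nearer fibrotic section, 21 of the 32 lay at least 2-fold.

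**Figure D1:**
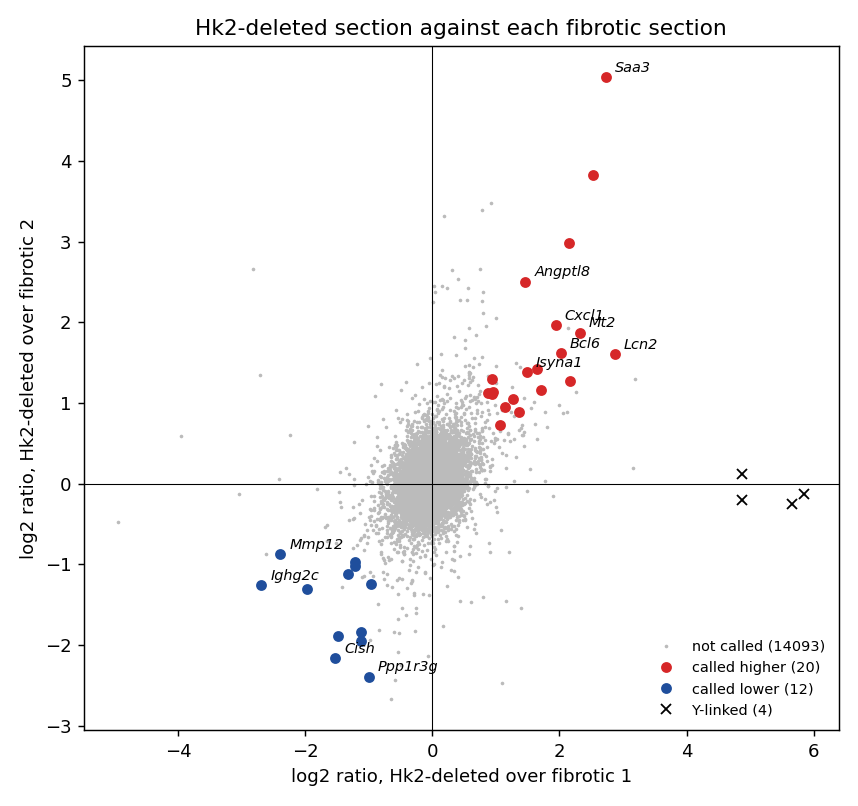
Each point is 1 of 14125 genes, with the log2 ratio of the Hk2-deleted section to fibrotic replicate 1 on the x axis and to replicate 2 on the y axis (0.5 CPM added; both axes share the deleted section, so a diagonal trend is built in). The 20 genes called higher lie in the upper right quadrant and the 12 called lower in the lower left, while the 4 Y-linked genes lie far right near a y of 0.

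**Figure D2:**
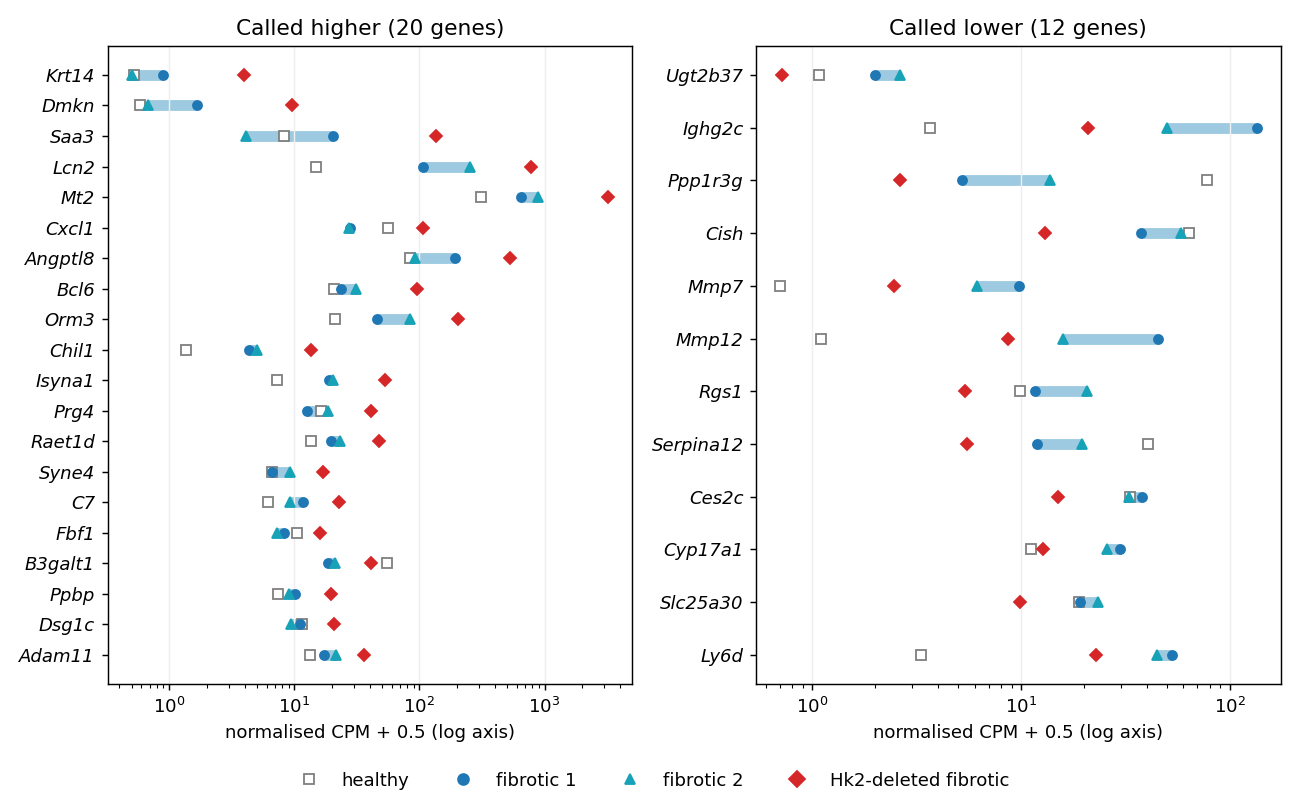
Normalised CPM plus 0.5 on a log axis for the 20 genes called higher and the 12 called lower, one marker per section; the blue bar spans the 2 fibrotic sections. The Hk2-deleted section lies outside the bar in all 32, and healthy levels fall on either side of it.

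Each section was also divided by array position into 4 blocks of about equal spot number. The Hk2-deleted section was above all 8 fibrotic blocks in all 4 of its blocks for 15 of the 20 genes called higher, and below all 8 in all 4 blocks for 10 of the 12 called lower, all but Ighg2c and Ppp1r3g. The exceptions among the higher genes were Saa3, Dmkn, Krt14 and Chil1, with 2 blocks each, and C7, with 1. Blocks of 1 section are not replicates, so these counts describe how evenly a difference was spread over the tissue.

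The calls depended on how the sums were made. Cxcl1, Bcl6, Isyna1 and Raet1d were called in all 6 other fits that were run. The other 28 genes lost their call when the mesothelial spots were left out, where 4 genes were called higher and 0 lower by edgeR, with 459 genes at an unadjusted p under 0.05 against 443 over all spots. Their fold changes did not all shrink with the call: without those spots Lcn2 was at 2.19, Mt2 at 2.13, Angptl8 at 2.01, Orm3 at 1.71 and Cish at -1.92, against 2.10, 2.08, 1.90, 1.66 and -1.92 over all spots, while Saa3, Dmkn, Krt14 and Chil1 were smaller. With the 3 CCl4-treated sections alone, 8 genes were called higher and 2 lower: Chil1, Prg4, Saa3 and Dmkn beside the 4 named, and Ces2c and Cish. DESeq2 called 8 of the 20 and 7 of the 12, and did not call Saa3, Lcn2, Angptl8, Dmkn, Krt14, C7, Syne4, Fbf1, B3galt1, Ppbp, Dsg1c, Adam11, Ighg2c, Mmp12, Ppp1r3g, Slc25a30 or Ugt2b37. Dsg1c, Fbf1, Ppbp and Ugt2b37 were also lost with no scaling beyond the UMI total. In the IL-6 and STAT3, neutrophil, Kupffer cell, fibrillar collagen, other matrix, stellate cell, TGF-beta and glycolysis lists, in which edgeR called 0 members, DESeq2 called 0 as well. Other fits did call members of these lists that are named below. Socs3, Myc and Retnlg passed in 3 of the 6 each, and Mmp9, S100a9, Acta2 and Lrat in 1 each.

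Hk2 itself is given first. Hk2 (ENSMUSG00000000628, chromosome 6, 82725025 to 82774454 of GRCm38.p6) stood at 2.22 CPM in the healthy section, 4.34 and 4.02 CPM in fibrotic replicates 1 and 2, and 3.21 CPM in the Hk2-deleted section. The deleted section was below both fibrotic sections, whose levels were close to each other, and above the healthy one. The log2 fold change was -0.38 ± 0.33 (adjusted p = 1.00), which did not pass, and 3 of 4 blocks of the deleted section were below all 8 fibrotic blocks. Hk1 (-0.16 ± 0.20) and Hk3 (-0.15 ± 0.20) had adjusted p = 1.00 as well. The Cre acts in Pdgfrb-expressing cells only, section totals count every cell, and where in Hk2 the probes bind is not given in the sources used here, and a probe outside the deleted part would check nothing. Pdgfrb stood at 9.22, 31, 24.1 and 23.4 CPM, -0.24 ± 0.19 (adjusted p = 1.00).

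The acute phase genes lay above both fibrotic sections almost as a whole. Of 23 tested members, 22 were above both, against 28.1% of all genes tested, and 3 rose: Saa3, Lcn2 and Orm3. The median log2 fold change of the list was 0.99, against -0.01 over all genes tested, and it was 0.67 against fibrotic replicate 2 alone and 1.41 against replicate 1 alone. Between the fibrotic sections the median ratio of replicate 1 to replicate 2 was -0.68, so replicate 2 was the higher of them. The member below both was Hamp, the iron hormone hepcidin, with 429, 400.5, 581 and 375 CPM; it was chosen for naming after its values were seen.

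Lcn2 (ENSMUSG00000026822, chromosome 2, 32384637 to 32387739), an iron-carrier binding protein that hepatocytes and neutrophils release, stood at 14.5 CPM in the healthy section, 106 and 255 CPM in fibrotic replicates 1 and 2, and 776 CPM in the Hk2-deleted section. The healthy section was lowest, the fibrotic sections differed more than 2-fold, and the deleted one lay above both. The log2 fold change was 2.10 ± 0.37 (adjusted p = 0.0122). The blocks of the deleted section held 744 to 799 CPM, so they were alike, which does not show the pattern within a block. Orm3, an orosomucoid (a plasma lipid and drug carrier), stood at 20.7 CPM in the healthy section, 45 and 84 CPM in fibrotic replicates 1 and 2, and 204 CPM in the Hk2-deleted section and rose by 1.66 ± 0.27 (adjusted p = 0.00831) on the log2 scale. Its blocks held 179 to 228 CPM.

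Saa3 (ENSMUSG00000040026, chromosome 7, 46711998 to 46719615), a serum amyloid A protein, was uneven over the tissue. Its levels were 7.84 CPM in the healthy section, 20.1 and 3.64 CPM in fibrotic replicates 1 and 2, and 136 CPM in the Hk2-deleted section, a log2 fold change of 3.50 ± 0.47 (adjusted p = 0.00135). The fibrotic sections were themselves 2.31 apart on the log2 scale, and the healthy level lay between them. In the 4 blocks of the deleted section Saa3 stood at 246, 339, 11.7 and 11.6 CPM. In the authors' deposited table of spatial scores (Moran's I, which is high where neighbouring spots have like levels), Saa3 had 0.64 in the deleted section, the highest of all genes there, against 0.19 and 0.00 in the fibrotic sections. Lcn2, although alike between blocks, had 0.15 in the deleted section and 0.04 in each fibrotic section. The blocks with much Saa3 were those with mesothelial transcripts: Msln stood at 11.8 and 15 CPM in them and at 1.70 and 0.167 CPM in the others. Without the mesothelial spots the log2 fold change of Saa3 was 2.12, and it was no longer called.

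**Figure D3:**
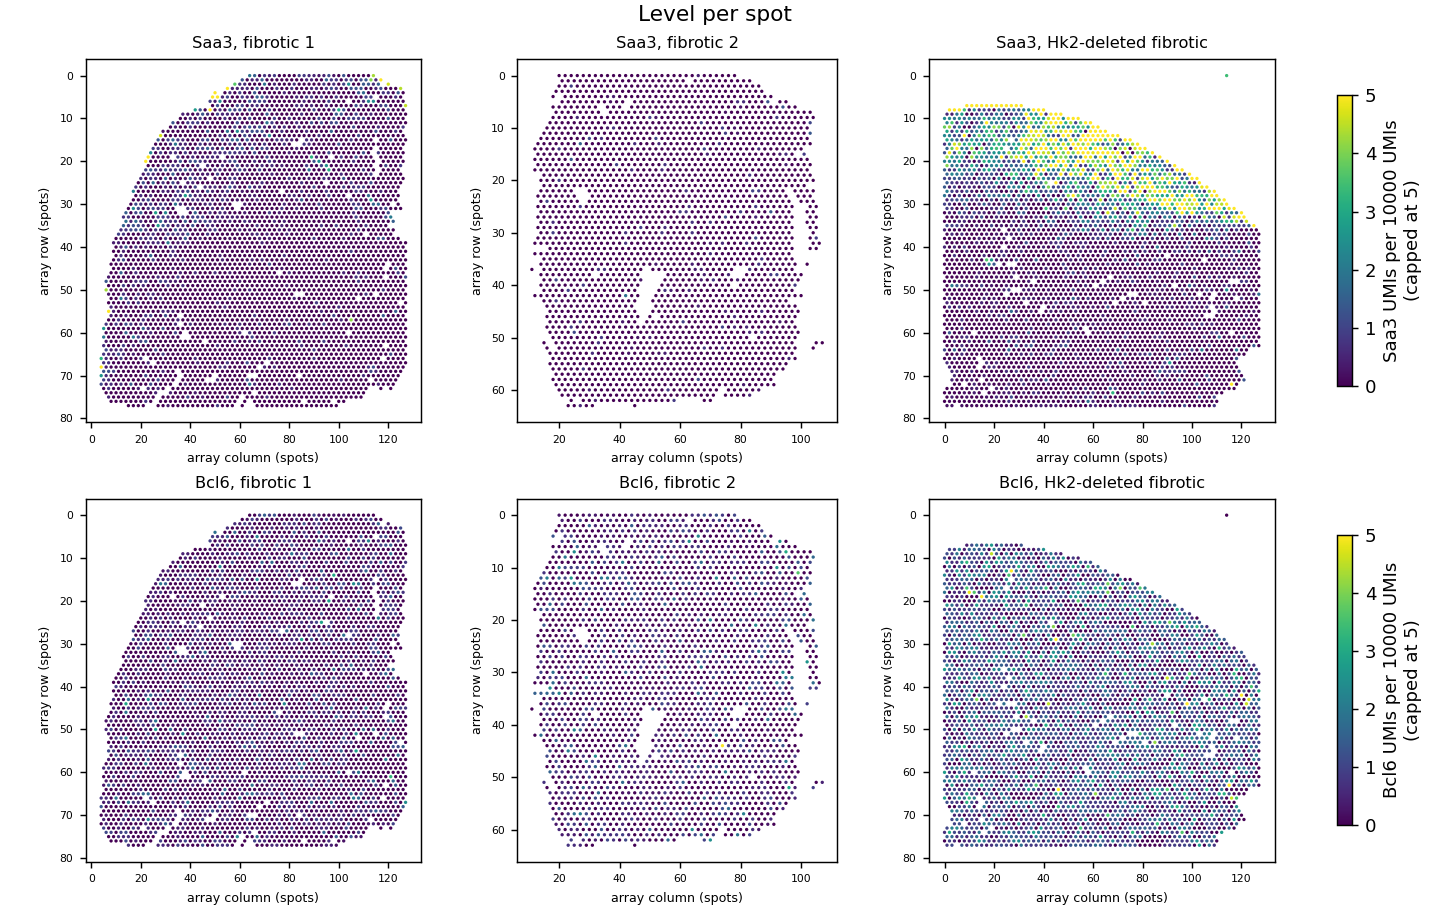
Saa3 (top) and Bcl6 (bottom) UMIs per 10000 UMIs of each spot, at the spot's array row and column, in fibrotic replicates 1 and 2 and the Hk2-deleted section; colours stop at 5. Saa3 is high in a band along 1 edge of the Hk2-deleted section, in the blocks at 246 and 339 CPM, while Bcl6 is spread over that whole section, between 91.8 and 97.9 CPM per block.

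The remaining acute phase members did not pass over all genes in the edgeR fit described above. Of the 6 other fits, 4 each called Serpina3n and Saa4, and 3 each called Orm2 and Lrg1. Orm2, a further orosomucoid, had 55.2, 128, 471 and 1162 CPM and a fold change of 1.96 ± 0.47 (adjusted p = 0.135). Lrg1, a leucine-rich plasma glycoprotein, had 730.3, 413, 898 and 1979 CPM and 1.59 ± 0.44 (adjusted p = 0.305). Serpina3n, a protease inhibitor, had 187, 187, 245 and 512 CPM and 1.25 ± 0.29 (adjusted p = 0.117), and Saa4 had 408, 201, 286 and 532 CPM and 1.13 ± 0.31 (adjusted p = 0.305). In all 4 genes each block of the deleted section was above all 8 fibrotic blocks. Summed over the 23 members, levels were 36594 CPM in the healthy section, 21627 and 35827 CPM in the fibrotic sections, and 57197 CPM in the deleted one.

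**Figure D4:**
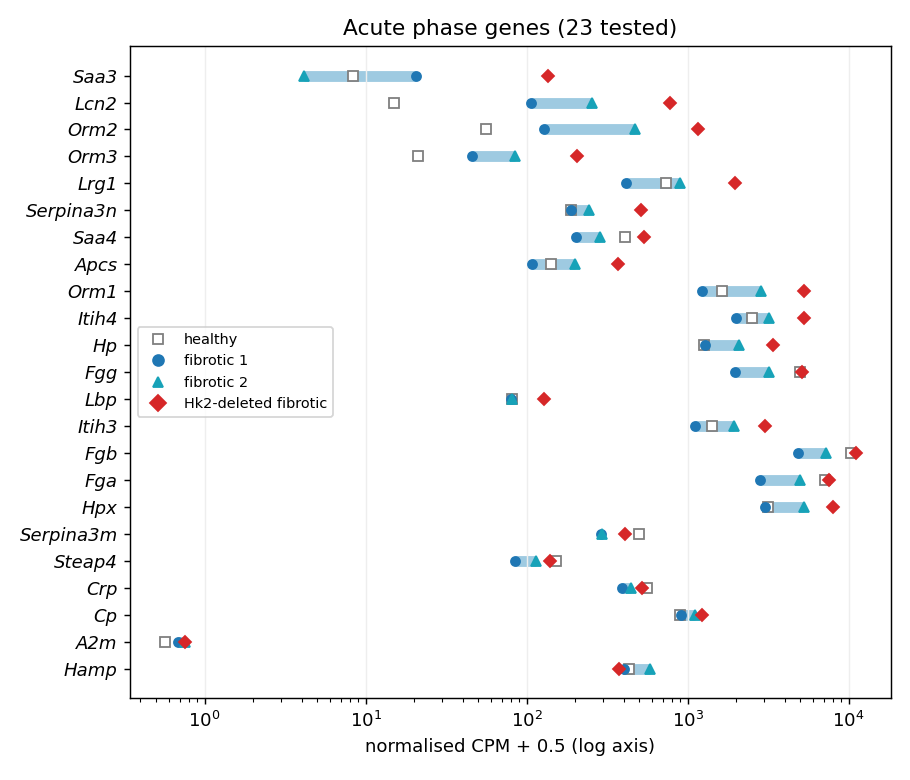
Normalised CPM plus 0.5 on a log axis for the 23 acute phase genes, ordered by how far the Hk2-deleted section lies past the nearer fibrotic section; one marker per section, with a bar between the 2 fibrotic sections. The deleted section is right of the bar in 22 genes and left of it for Hamp.

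The genes of cytokine signalling above these targets were less far from the fibrotic range. In the IL-6 and STAT3 list 13 of 22 were above both fibrotic sections and 4 below, against 28.1% and 28.2% of all genes tested. edgeR called 0, while 6 had an unadjusted p under 0.05, and the median was 0.31. Socs3, a feedback inhibitor induced by STAT3, had 58.4, 17.5, 32.5 and 54.5 CPM and a fold change of 1.13 ± 0.25 (adjusted p = 0.0926). Its deleted level was close to the healthy one. Cebpd, a C/EBP factor, was at 0.55 ± 0.19 (adjusted p = 0.726), while Il1b, a macrophage cytokine, at -0.79 ± 0.22 (adjusted p = 0.288), and the growth regulator Myc, at -1.82 ± 0.44 (adjusted p = 0.149), lay below both fibrotic sections. 

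Promoter sequence is shown for Saa3, Lcn2 and Cxcl1, which had the largest fold changes among the called acute phase and chemokine genes. RefSeq windows on GRCm38.p6 were searched over the 250 bases before each transcript start, on both strands. The motifs were the STAT palindrome TTCNNNGAA, the NF-kB-type GGG and CC with any 5 bases between them, the C/EBP-type TTGCNNAA and the metal-response-element-type TGCNCNC. Capitals mark matches of the first 3 motifs in the windows of Saa3 (chr7:46715677-46715926, minus strand), Lcn2 (chr2:32387740-32387989, minus strand) and Cxcl1 (chr5:90890995-90891244, plus strand), each 5′ to 3′.
Saa3: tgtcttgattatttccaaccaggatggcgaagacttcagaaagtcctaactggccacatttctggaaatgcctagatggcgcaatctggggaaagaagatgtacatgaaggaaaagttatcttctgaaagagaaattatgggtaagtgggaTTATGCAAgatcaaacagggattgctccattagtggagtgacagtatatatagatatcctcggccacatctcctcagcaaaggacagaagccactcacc
Lcn2: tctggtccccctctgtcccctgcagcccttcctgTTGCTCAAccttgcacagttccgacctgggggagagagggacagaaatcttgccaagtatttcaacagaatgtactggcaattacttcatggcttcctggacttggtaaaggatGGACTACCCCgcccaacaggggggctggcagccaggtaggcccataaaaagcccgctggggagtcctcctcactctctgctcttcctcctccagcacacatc
Cxcl1: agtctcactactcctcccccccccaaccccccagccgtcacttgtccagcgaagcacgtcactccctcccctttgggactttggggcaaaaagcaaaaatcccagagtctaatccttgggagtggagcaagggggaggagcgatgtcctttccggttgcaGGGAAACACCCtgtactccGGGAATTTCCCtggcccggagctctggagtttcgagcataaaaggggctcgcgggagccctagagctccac
Saa3 had 1 C/EBP-type match, at position -99 counted from the transcript start, and Lcn2 had 1 C/EBP-type match at -216 and 1 NF-kB-type match at -102. Cxcl1 had 4 NF-kB-type matches, at -90, -89, -71 and -70, which overlap in pairs. No STAT palindrome stood in these 3 windows. The Saa3 gene model reaches beyond this start, to 46719615, so its window lies inside the annotated gene.

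Over all genes the NF-kB-type letters were too common to set a gene apart: 65.4% of the 10991 tested genes with a window had a match, as did 9 of 17 genes called higher and 7 of 8 called lower. The C/EBP-type letters occurred in 9.66% of genes, in 6 of the 17 (Angptl8, Dmkn, Lcn2, Mt2, Orm3 and Saa3), in 3 of the 8 (Mmp12, Mmp7 and Serpina12), and in 10 of 18 acute phase genes with a window. The STAT palindrome occurred in 7.34% of genes, in 4 of the 17 (Bcl6, C7, Fbf1 and Syne4), in 0 of the 8 and in 6 of the 18. Some genes have several windows, and a match in any of them counted. Over all 32851 windows the shares were 45.8% for the NF-kB type, 9.56% for the C/EBP type and 7.02% for the STAT palindrome. A match is a run of letters, not a bound site.

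Cxcl1 (ENSMUSG00000029380, chromosome 5, 90891245 to 90893121), a chemokine that attracts neutrophils, had the smallest adjusted p of all genes. It stood at 55.4 CPM in the healthy section, 27.4 and 26.8 CPM in fibrotic replicates 1 and 2, and 106 CPM in the Hk2-deleted section. The fibrotic sections were alike, the healthy section was above them, and the deleted section was above all others. The log2 fold change was 1.97 ± 0.20 (adjusted p = 6.27e-05), and the blocks of the deleted section ran from 95.3 to 115 CPM. Of 28 chemokine and receptor genes tested, Cxcl1 alone was called. Above both fibrotic sections lay 6 and below both 14, against 28.1% and 28.2% of all genes tested. The list's median was -0.19, and it was -0.0409 against replicate 2 alone and -0.27 against replicate 1 alone. The receptor Cxcr4 was among those below, with 2.91, 13.1, 15.9 and 7.97 CPM and -0.86 ± 0.23 (adjusted p = 0.248). Ppbp, a chemokine of platelets, rose by 1.06 ± 0.20 (adjusted p = 0.0247), from 9.62 and 8.54 CPM in fibrotic replicates 1 and 2 to 19 CPM.

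Neutrophil transcripts were low while Cxcl1 was high. Of 17 neutrophil genes tested, 13 were below both fibrotic sections, 3 between them and 1, Ctsg, above both; 28.2% of all genes tested were below both. None was called by edgeR, although 12 had an unadjusted p under 0.05. The list's median was -0.83 and depended on the section: -1.22 against fibrotic replicate 2 and -0.31 against replicate 1. S100a9, a calcium-binding protein of neutrophils and monocytes, had 13.5, 244, 616 and 236 CPM, and the granule gene Camp had 0.333, 43.8, 69.3 and 34.2 CPM. Fibrotic replicate 2 stood well above both other CCl4-treated sections in these genes, and the deleted section was just below replicate 1. Csf3r, the receptor for the neutrophil growth factor G-CSF, had 6.73, 21.5, 21.7 and 13.5 CPM, and its fold change was -0.68 ± 0.19 (adjusted p = 0.348). Retnlg was at -1.56 ± 0.40 (adjusted p = 0.188) and the gelatinase Mmp9 at -1.14 ± 0.31 (adjusted p = 0.288).

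Bcl6 and Cish moved in opposite directions. Bcl6 (ENSMUSG00000022508, chromosome 16, 23965050 to 23988866) stood at 20.2 CPM in the healthy section, 23.1 and 30.8 CPM in fibrotic replicates 1 and 2, and 95.2 CPM in the Hk2-deleted section. The 3 other sections lay close together and the deleted one above them all, by 1.83 ± 0.21 (adjusted p = 2.10e-04) on the log2 scale against the fibrotic ones. The level was even over the deleted section (91.8 to 97.9 CPM per block), and the authors' deposited table gave a Moran's I of 0.01 there. Cish (ENSMUSG00000032578, chromosome 9, 107296659 to 107302784), the feedback inhibitor of STAT5, stood at 63.6 CPM in the healthy section, 37.2 and 58 CPM in fibrotic replicates 1 and 2, and 12.5 CPM in the Hk2-deleted section. It was lowest in the deleted section, below all 8 fibrotic blocks in each of its 4 blocks, with a fold change of -1.92 ± 0.26 (adjusted p = 0.00135). Against fibrotic replicate 1 alone the fold change of Cish was -1.57 and against replicate 2 alone -2.21.

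The 16 genes of the growth hormone and STAT5 list did not move one way: 5 were above both fibrotic sections, 6 below and 5 between, with a median of -0.05; it was -0.0242 against replicate 2 alone and -0.13 against replicate 1 alone. The growth factor Igf1 had 857, 862, 983 and 709 CPM and -0.38 ± 0.40 (adjusted p = 1.00), and Socs2, a further STAT5 target, had 7.20, 5.01, 3.39 and 3.0 CPM and -0.50 ± 0.31 (adjusted p = 1.00). The transcription factor Onecut1 had 252, 110.2, 161 and 67 CPM and -1.02 ± 0.29 (adjusted p = 0.319). The binding proteins Igfbp1, at -1.15 ± 0.38 (adjusted p = 0.660), and Igfbp2, at -0.74 ± 0.40 (adjusted p = 1.00), lay below both fibrotic sections too. Female-biased and male-biased liver genes, many of which follow the pattern of growth hormone release, differed between the fibrotic sections: Cyp2b13 had 1.31, 34.1, 0.276 and 4.39 CPM and Mup20 3529.7, 528, 4047 and 1394 CPM. The 9 female-biased genes tested had a median of -2.06 against replicate 1 and 0.74 against replicate 2, so no direction against the group could be given. Of the 11 male-biased genes tested, 10 had a negative fold change. Their median was -0.78, and it was 0.07 against replicate 1 alone and -1.54 against replicate 2 alone.

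The promoter window of Bcl6 is shown for its STAT palindrome, in capitals at position -118 (chr16:23988853-23989102, minus strand, the first of 2 windows). The 1 window of Cish held none.
Bcl6: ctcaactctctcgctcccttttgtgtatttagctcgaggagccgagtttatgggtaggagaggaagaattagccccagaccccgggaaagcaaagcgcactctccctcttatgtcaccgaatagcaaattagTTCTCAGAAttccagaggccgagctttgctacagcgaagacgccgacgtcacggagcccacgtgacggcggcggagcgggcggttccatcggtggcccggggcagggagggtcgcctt

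Metallothioneins are small proteins that bind zinc and copper. Mt2 (ENSMUSG00000031762, chromosome 8, 94172618 to 94173567) stood at 311 CPM in the healthy section, 646 and 881 CPM in fibrotic replicates 1 and 2, and 3222 CPM in the Hk2-deleted section, and rose by 2.08 ± 0.42 (adjusted p = 0.0421) on the log2 scale. Mt1 stood at 764 CPM in the healthy section, 967 and 1121 CPM in fibrotic replicates 1 and 2, and 4256 CPM in the Hk2-deleted section, a fold change of 2.03 ± 0.46 (adjusted p = 0.0956) that did not pass here but passed with DESeq2, without scaling beyond the UMI total, with upper-quartile scaling and without the filter on low counts. In both genes the healthy section was lowest, and the fibrotic sections lay nearer to each other than to the deleted one. All 4 blocks of the deleted section were above all 8 fibrotic blocks. The other zinc genes were closer to the fibrotic range: 9 of 11 tested members of the list were above both fibrotic sections, but the median was 0.20; it was 0.166 against replicate 2 alone and 0.34 against replicate 1 alone. The zinc importer Slc39a14 had 104, 51.6, 59.9 and 76.7 CPM and 0.46 ± 0.22 (adjusted p = 1.00), and the exporter Slc30a1 had 54.6, 55.2, 60.5 and 69.8 CPM. Mt2 also stands in the glucocorticoid response list, in which it was the 1 called gene of 17; 8 of the 17 were above both fibrotic sections and 0 below, with a median of 0.17, which was 0.0263 against replicate 2 alone and 0.21 against replicate 1 alone.

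The Mt2 window (chr8:94172368-94172617, plus strand) is shown for its 5 matches of the metal-response-element-type letters TGCNCNC, in capitals. They lie at positions -223, -178, -128, -113 and -50. Each N stands for any base, so a match need not be a full metal response element core. Those loose letters occurred in 56.3% of tested genes with a window, in 8 of the 17 called higher and in 2 of the 8 called lower. Their presence alone therefore sets no gene apart. Of all 32851 windows, 44.4% held them.
Mt2: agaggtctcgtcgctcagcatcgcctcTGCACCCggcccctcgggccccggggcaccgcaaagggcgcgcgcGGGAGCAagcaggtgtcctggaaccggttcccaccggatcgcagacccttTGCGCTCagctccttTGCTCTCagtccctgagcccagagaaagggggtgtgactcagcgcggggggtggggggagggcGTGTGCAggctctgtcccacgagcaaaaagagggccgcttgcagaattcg

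Macrophage genes of the kind found in scars lay low. In the lipid-associated macrophage list, 16 of 18 tested genes were below both fibrotic sections, against 28.2% of all genes tested. Of the others, 2 were between and 0 above. All 18 had a negative fold change, as did 51.8% of all genes tested (48.2% were positive). The median was -0.29, with -0.15 against replicate 2 and -0.43 against replicate 1. Its 1 called member was Mmp12, the macrophage elastase, with 0.600 CPM in the healthy section, 45 and 15.4 CPM in fibrotic replicates 1 and 2, and 8.17 CPM in the Hk2-deleted section, a log2 fold change of -1.89 ± 0.39 (adjusted p = 0.0421). The fibrotic sections were 1.52 apart in Mmp12 on the log2 scale, and the deleted section lay at -0.87 against the lower of them. Gpnmb, a glycoprotein of lipid-laden macrophages, had 0.222, 89.3, 82.5 and 56.2 CPM and -0.61 ± 0.21 (adjusted p = 0.731), and the lysosomal protease Ctsd 163, 338, 282 and 225 CPM and -0.46 ± 0.29 (adjusted p = 1.00). Of 15 Kupffer cell genes, the resident macrophages, 8 were below both fibrotic sections, 1 above and 0 called by edgeR; 1 had an unadjusted p under 0.05.

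The 25 matrix proteases and inhibitors tested held 2 calls, Mmp7 and Mmp12, both lower. Mmp7, matrilysin, stood at 0.200 CPM in the healthy section, 9.24 and 5.63 CPM in fibrotic replicates 1 and 2, and 1.97 CPM in the Hk2-deleted section, with -1.92 ± 0.36 (adjusted p = 0.0191). The collagenase Mmp13 had 0.755, 8.99, 5.02 and 2.83 CPM and -1.31 ± 0.35 (adjusted p = 0.248), and Adam8 1.13, 9.98, 10.3 and 6.93 CPM. All 4 blocks of the deleted section were below all 8 fibrotic blocks for Mmp7, Mmp12 and Mmp13. The inhibitor Timp1 had 0.178, 1.52, 0.879 and 2.42 CPM and 0.99 ± 0.47 (adjusted p = 1.00); without the mesothelial spots its sign turned, to -0.29.

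The main fibrillar collagens did not leave the fibrotic range. Of 8 fibrillar collagen genes tested, 7 were between the fibrotic sections and 1, Col27a1, above both. Col1a1 stood at 9.40 CPM in the healthy section, 351 and 168 CPM in fibrotic replicates 1 and 2, and 234 CPM in the Hk2-deleted section, Col1a2 at 15.7, 329.8, 144 and 249 CPM and Col3a1 at 47.9, 667, 384 and 423 CPM. In these 3 genes replicate 1 was highest, replicate 2 lowest of the CCl4-treated sections, and the healthy section far below. The fold changes were -0.15 ± 0.34, 0.07 ± 0.35 and -0.31 ± 0.36, with adjusted p = 1.00 each. The list's median was 0.05; it was 0.39 against replicate 2, -0.26 against replicate 1 and -0.43 without the mesothelial spots, so no direction held. Over the deleted section Col1a1 was uneven, with 262, 514, 152 and 78.3 CPM in its blocks, and was high in the blocks with much Saa3 and Msln. Of 36 other matrix and crosslinking genes, 20 were between the fibrotic sections, 11 below and 5 above, with 0 called by edgeR and 0 at an unadjusted p under 0.05. The proteoglycan Bgn was the member farthest below, with 127, 510.4, 328 and 263 CPM and -0.67 ± 0.33 (adjusted p = 1.00).

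Stellate cell and contractile genes split: 10 of 27 were above both fibrotic sections and 11 below, against 28.1% and 28.2% of all genes tested. edgeR called 0, and 4 had an unadjusted p under 0.05. Acta2, the smooth muscle actin of myofibroblasts and vessels, had 5.47, 9.99, 5.53 and 15.2 CPM and 0.96 ± 0.26 (adjusted p = 0.290), and Myh11, a smooth muscle myosin, 2.09, 5.48, 3.47 and 7.66 CPM and 0.77 ± 0.30 (adjusted p = 1.00). Acta2 reached 32.6 CPM in 1 block of the deleted section and 8.11, 11.4 and 4.56 CPM in the others. Lrat, which esterifies retinol for storage, lay on the other side, with 33, 48.6, 37.8 and 25.3 CPM and -0.77 ± 0.21 (adjusted p = 0.271). Of 25 TGF-beta signalling genes, 10 were below both fibrotic sections, 4 above and 0 called by edgeR; 1 had an unadjusted p under 0.05.

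A group of called genes was concentrated in part of the deleted section. Dmkn, a secreted protein of stratified epithelia, had 0.0889, 1.16, 0.176 and 9.10 CPM and 3.66 ± 0.52 (adjusted p = 0.00197). Krt14, a basal keratin, had 0.0222, 0.396, 0 and 3.46 CPM and 3.91 ± 0.72 (adjusted p = 0.0181), with 0 UMIs in fibrotic replicate 2. Chil1, a chitinase-like secreted protein, had 0.866, 3.81, 4.55 and 13 CPM and 1.65 ± 0.25 (adjusted p = 0.00417). In the blocks of the deleted section Dmkn stood at 15.9, 24.4, 0.473 and 0.334 CPM. In the same order Krt14 stood at 7.02, 8.34, 0.0946 and 0.0556 CPM and Chil1 at 20.8, 26.2, 5.01 and 4.39 CPM, high in the same 2 blocks as Saa3. Mesothelial transcripts differed too: 10 of 12 tested members were above both fibrotic sections, against 28.1% of all genes tested. The summed level of the list was 87.8 and 25.9 CPM in fibrotic replicates 1 and 2 and 82.2 CPM in the deleted section. The median of the list was 1.00 over all spots and 0.11 without the mesothelial spots, and over all spots it was 4.76 against replicate 2 alone and 0.29 against replicate 1 alone. Without those spots the fold changes of Dmkn, Krt14 and Chil1 were 1.92, 2.27 and 0.80, all smaller than over all spots. C7, a complement component, had 5.64, 11.3, 8.67 and 22.1 CPM and 1.14 ± 0.21 (adjusted p = 0.0178), and was high in another block, at 46.7 CPM, where Acta2 was high too.

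Hepatocyte metabolism gave calls in both directions. Angptl8, a liver hormone that restrains lipoprotein lipase in other tissues, stood at 84.1 CPM in the healthy section, 191 and 92.5 CPM in fibrotic replicates 1 and 2, and 527 CPM in the Hk2-deleted section, and rose by 1.90 ± 0.33 (adjusted p = 0.0120). The fibrotic sections differed by 1.04 on the log2 scale, and the deleted section was 1.46 past the higher of them. Isyna1 (ENSMUSG00000019139, chromosome 8, 70594481 to 70597290), which makes inositol phosphate from glucose 6-phosphate, stood at 6.73 CPM in the healthy section, 18.4 and 19.9 CPM in fibrotic replicates 1 and 2, and 52.6 CPM in the Hk2-deleted section, and rose by 1.46 ± 0.17 (adjusted p = 2.64e-04) with the fibrotic sections almost equal. Of 22 lipoprotein lipase and apolipoprotein genes, Angptl8 was the 1 called member. Another 12 lay below both fibrotic sections, against 28.2% of all genes tested. Apoa4 lay farthest below, with 85.8, 482, 673 and 346 CPM and -0.74 ± 0.34 (adjusted p = 1.00).

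Ppp1r3g, which targets a phosphatase to glycogen, stood at 77.6 CPM in the healthy section, 4.74 and 13.3 CPM in fibrotic replicates 1 and 2, and 2.13 CPM in the Hk2-deleted section, with -2.06 ± 0.39 (adjusted p = 0.0231). The healthy level was far above all 3 CCl4-treated sections. In the gluconeogenesis and glycogen list it was the 1 called member of 24. Of these, 8 were above both fibrotic sections and 9, Ppp1r3g among them, below both. Ppp1r3c, a related targeting subunit, had 26.5, 19.2, 7.96 and 25 CPM and 0.87 ± 0.29 (adjusted p = 0.693). Of 23 glycolysis genes, 13 were below both fibrotic sections and 1 above, against 28.2% and 28.1% of all genes tested. edgeR called 0 of the 23, with 0 at an unadjusted p under 0.05. Their median of -0.16 was -0.18 against replicate 2 and -0.16 against replicate 1. Gpi1, which converts glucose 6-phosphate to fructose 6-phosphate, had 235, 253, 257 and 223 CPM and -0.19 ± 0.28 (adjusted p = 1.00).

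Ces2c, a carboxylesterase, stood at 32.7 CPM in the healthy section, 37.4 and 32.3 CPM in fibrotic replicates 1 and 2, and 14.6 CPM in the Hk2-deleted section, with -1.26 ± 0.19 (adjusted p = 0.00420). The other 3 sections were alike and the deleted one lower. Cyp17a1, a steroid hydroxylase, stood at 10.6 CPM in the healthy section, 29.2 and 25.4 CPM in fibrotic replicates 1 and 2, and 12.2 CPM in the Hk2-deleted section, with -1.16 ± 0.19 (adjusted p = 0.0102); the deleted section was close to the healthy one. Serpina12, the adipokine vaspin, had 40.2, 11.5, 19.2 and 5.0 CPM and -1.61 ± 0.26 (adjusted p = 0.00562), and Slc25a30, a mitochondrial carrier, 18.5, 18.8, 23 and 9.41 CPM and -1.15 ± 0.20 (adjusted p = 0.0130). Ugt2b37, a glucuronosyltransferase, had few UMIs, at 0.578, 1.49, 2.14 and 0.211 CPM, with -3.08 ± 0.61 (adjusted p = 0.0355).

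The lists that hold Ces2c, Cyp17a1 and Serpina12 differed in how their members lay. Below both fibrotic sections lay 28.2% of all genes tested. Of 12 carboxylesterases, 7 were below both fibrotic sections, with Ces3b at 1008, 521, 686 and 317 CPM and -0.93 ± 0.38 (adjusted p = 1.00). Of 24 cytochrome P450 genes, 12 were below; Cyp1a2 had 1015, 745, 542 and 313 CPM and -1.04 ± 0.39 (adjusted p = 0.963), and Cyp2f2 1119, 1144, 1395 and 729 CPM and -0.80 ± 0.43 (adjusted p = 1.00), while Cyp2e1, which activates CCl4, had 8917, 3461, 3548 and 3452 CPM and -0.02 ± 0.64 (adjusted p = 1.00). Of 18 hepatocyte serpins, the list of Serpina12, 8 were above both fibrotic sections, 6 below and 4 between, with a median of -0.11; it was 0.0297 against replicate 2 alone and 0.16 against replicate 1 alone. None of these called genes stands in the hepatocyte identity list, of whose 18 members 11 were below and 4 above. Alb stood at 162270.0, 109102, 102682 and 63193 CPM, with -0.74 ± 1.75 (adjusted p = 1.00); the transcription factor Foxa2 had 28.5, 20.7, 20.7 and 13 CPM and -0.67 ± 0.19 (adjusted p = 0.297), and Serpina1a, an antitrypsin, 5325, 3693, 4932 and 2172 CPM and -0.99 ± 0.64 (adjusted p = 1.00). For Alb, Foxa2 and Serpina1a, all 4 blocks of the deleted section were below all 8 fibrotic blocks.

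The remaining lower calls were Ighg2c, Rgs1 and Ly6d. Ighg2c, an immunoglobulin heavy chain of plasma cells, stood at 3.18 CPM in the healthy section, 134 and 49.4 CPM in fibrotic replicates 1 and 2, and 20.3 CPM in the Hk2-deleted section, with -2.18 ± 0.39 (adjusted p = 0.0130). Immunoglobulin genes are near-identical copies of each other in part, so counts may be shared among them. The immunoglobulin genes Igha and Iglc1 lay on the other side. Igha had 480.1, 1074, 624 and 1206 CPM and Iglc1 11.7, 41.5, 37.5 and 66.3 CPM, with the deleted section above both fibrotic ones. Of 20 B cell and plasma cell genes 6 were above, 6 below and 8 between, and 7 had a negative fold change. Their fold changes ran from -3.62, in a gene that was not called, to 0.75. Rgs1, a regulator of G protein signalling in activated lymphocytes and macrophages, had 9.40, 11.2, 20.3 and 4.90 CPM and -1.68 ± 0.29 (adjusted p = 0.0120), and Ly6d, a surface antigen, 2.82, 52.5, 44.1 and 22.4 CPM and -1.11 ± 0.20 (adjusted p = 0.0130). Rgs1 was lowest in the deleted section and Ly6d in the healthy one.

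The other genes called higher shared no list. Prg4, the lubricating proteoglycan lubricin, had 16, 12.1, 17.9 and 40.9 CPM and 1.45 ± 0.20 (adjusted p = 0.00173). Raet1d (ENSMUSG00000078452, chromosome 10, 22361861 to 22374143), a ligand of the killer cell receptor NKG2D, had 13.2, 19.3, 22.6 and 47.3 CPM and 1.18 ± 0.18 (adjusted p = 0.00325), with the fibrotic sections close together. B3galt1, a galactosyltransferase, had 54.4, 18, 20.6 and 40.3 CPM and 1.06 ± 0.18 (adjusted p = 0.0120), and was the 1 gene called higher in which the healthy section was above the deleted one. Syne4, a nuclear envelope protein (1.16 ± 0.23), Fbf1, a centriole protein (1.09 ± 0.21), the desmosomal cadherin Dsg1c (1.03 ± 0.20) and Adam11 (0.90 ± 0.19) rose too, with adjusted p from 0.0247 to 0.0427. In all 4 each block of the deleted section was above all 8 fibrotic blocks.

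Against the healthy section, whose level is a single value with no replicate, 19 of the 20 genes called higher stood above it in the deleted section and 7 of the 12 called lower stood below it. Ighg2c, Mmp7, Mmp12, Cyp17a1 and Ly6d were low in the deleted section yet above healthy. Over the 44 gene lists, medians of 12 changed sign when fibrotic replicate 1 was left out and of 7 when replicate 2 was left out.

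**Figure D5:**
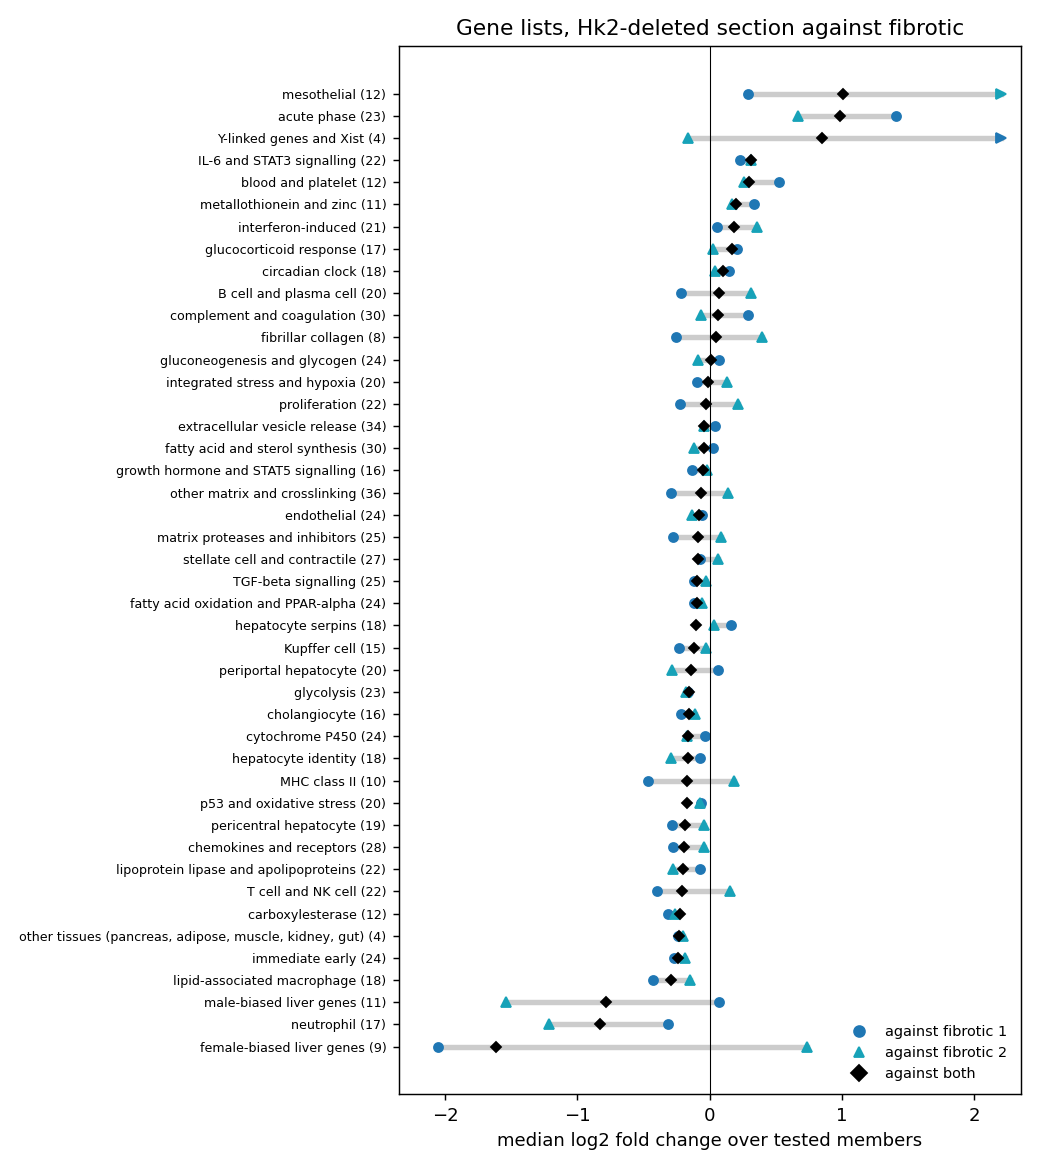
Median log2 fold change over the tested members of 44 gene lists (number tested in parentheses), for the Hk2-deleted section against both fibrotic sections, replicate 1 alone and replicate 2 alone; arrowheads mark medians beyond the axis. The acute phase, neutrophil and lipid-associated macrophage medians keep their side of 0 against either section, whereas those of fibrillar collagen, female-biased genes and Y-linked genes change side.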

How the data were processed

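Transcripts were measured in 4 mouse liver sections with Visium on fixed tissue. The deposited matrices hold UMI counts for each gene at each spot, written by Space Ranger 2.0.0 per the file headers; mm10 is the build named in the submitters' processing notes, and no source used here names the probe set. A deposited table of each section lists Moran's I, a spatial score by the authors, with gene totals that were checked and equalled the matrix for all genes listed.

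Each section's counts were summed over its spots (40585039 to 67479047 UMIs). edgeR 4.0.16 in R 4.3.3 was fitted to all 4 sections in 3 groups with TMM scaling, filterByExpr and the quasi-likelihood test, Benjamini-Hochberg adjusted, for the Hk2-deleted section (n = 1) against the fibrotic ones (n = 2). Log2 fold changes carry an approximate standard error (± SE), their size divided by the square root of the test's F statistic. It depends on the spread drawn towards the trend and is no direct measure of the spread between sections. The fit was tested on simulated data. A call needed an adjusted p under 0.05 and a level outside the fibrotic range; 0.5 CPM was added for ratios between sections. With 1 section a mouse, p-values rest on the spread between the 2 fibrotic mice, drawn for each gene towards a trend over all genes. That spread includes replicate 1, whose Y-linked level did not match its label, and its share was not tested. For Hk2, from 228 UMIs, the level of 3.50 CPM before TMM scaling had an exact Poisson 95% interval of 3.06 to 3.98, which covers counting error only. Cell barcodes mark array positions, and sections shared 2041 to 3320 of them. Alternatives were DESeq2 1.42.0, other scalings and filters, the CCl4-treated sections alone, sums without mesothelial spots, equal weight per spot and leaving out each fibrotic section.

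Hk2 was named first, then all called genes. For each of 44 lists the called members, or else up to 4 of the highest mean level, and up to 4 uncalled members at 5 CPM or more farthest outside the fibrotic range could be named, besides a few fixed markers and the genes that differed most between the fibrotic sections. The comparison, its members and the lists were chosen with earlier results of these data known. Sequences and positions are from RefSeq on GRCm38.p6; 32 of 32 called genes had a position, and 25 had a promoter window. Images were not analysed here, and a few list members are not reported here.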

Additional observations from a re-analysis of the deposited data

How the results depend on the processing

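The number of calls moved with the setting, while all 32 called genes kept their direction in the 6 other fits and with equal weight per spot. Against each fibrotic section alone, the range rule of a call fixed the direction. Against 20 higher and 12 lower, DESeq2 called 11 and 10, no scaling beyond the UMI total 62 and 43, upper-quartile scaling 40 and 25, and no filter on low counts 66 and 49. The 3 CCl4-treated sections alone gave 8 and 2, and edgeR without the mesothelial spots 4 and 0, with 459 genes at an unadjusted p under 0.05 against 443 over all spots. Of the genes at least 2-fold outside both fibrotic sections, 24 above and 11 below, 14 and 6 had 10 CPM or more on average. With 1 fibrotic section left out, 79 to 127 genes were at least 2-fold above the other and 56 to 68 below it, a value with no test. DESeq2 size factors, the other scalings, no filter and no mesothelial spots left these counts within 1.5 times. Among the 74 named genes that were not called, 30 passed in at least 1 other fit. A sign turned for 3 of them: Col1a2 was at -0.52 and Timp1 at -0.29 without the mesothelial spots, and Cyp2e1 at 0.030 with no scaling beyond the UMI total, and the causes were not tested. No paired analysis was possible with 1 deleted mouse, and the replicate numbers are labels that state no pairing. Leaving out a fibrotic section leaves no residual degree of freedom, so no test could be made there. With 1 deleted mouse, genotype and mouse cannot be told apart.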

Other observations

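Interferon-induced genes lay high without passing. Of 21 tested, 13 were above both fibrotic sections and 0 below, against 28.1% and 28.2% of all genes tested. The list's median was 0.18, with 0.36 against replicate 2 and 0.06 against replicate 1. Irf7, an interferon regulatory factor, had 103, 76.3, 73.9 and 140.2 CPM in the healthy section, fibrotic replicates 1 and 2 and the Hk2-deleted section, and a log2 fold change of 0.90 ± 0.22 (adjusted p = 0.163) by edgeR, even over the 4 blocks (132 to 150.0 CPM). Zbp1, a sensor of nucleic acids, had 21.7, 32.9, 26.3 and 41.2 CPM. Among 22 T cell and NK cell genes, the granzyme Gzma had 5.15, 5.71, 5.98 and 10.5 CPM and 0.85 ± 0.23 (adjusted p = 0.275), above all 8 fibrotic blocks in all 4 blocks, although 9 of the 22 were below both fibrotic sections and 3 above.

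Immediate early genes lay low: 12 of 24 were below both fibrotic sections, against 28.2% of all genes tested. Above both were 2, and 0 were called by edgeR. The list's median was -0.24, with -0.18 against replicate 2 and -0.27 against replicate 1. Egr1 had 70.3, 81, 46.1 and 34 CPM and Nr4a1 16.2, 10.2, 10.0 and 6.27 CPM. Among circadian clock genes Bhlhe40 had 360.0, 219, 254 and 365 CPM. Of 18 tested, 9 were above both fibrotic sections, against 28.1% of all genes tested, and 2 below. The hour of tissue collection is not given in the sources used here. Haemoglobin and platelet transcripts went apart: Hbb-bs had 257, 655, 295 and 206 CPM and the platelet factor Pf4 10.3, 19.6, 17.1 and 29.2 CPM. The pericentral gene Gstm3, a glutathione transferase, had 85.3, 442, 482 and 225 CPM and -1.04 ± 0.31 (adjusted p = 0.472); DESeq2 called it at an adjusted p of 0.00818, while its adjusted p ran from 4.60e-04 to 0.849 over the fits run.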
